A study of Mus musculus with 14 samples.

Results

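The Iroquois and Zic genes are developmental transcription factors that sit in gene clusters, and 10 of them were described here by the histone mark around them: Irx1, Irx2 and Irx4 on chromosome 13, Irx3, Irx5 and Irx6 on chromosome 8, Zic1 and Zic4 on chromosome 9, and Zic2 and Zic5 on chromosome 14. They are 10 of the 22367 protein-coding genes of the annotation. For each gene, every H3K27ac ChIP-Seq peak that overlapped the gene body extended by 50 kb on either side was collected, and a peak shared by neighbouring windows was counted once. This gave 12 of the 13463 peaks in the list. The peaks came from embryonic day 14 (E14) retinas of CD1 mice, and the labels give no altered allele for this sample. The labels name the cells as retinal progenitor cells (RPCs), but per the study's methods whole dissected retinas were dissociated for ChIP, so other retinal cells were present. The series has 14 samples of chromatin accessibility, RNA and H3K27ac. They include wild-type and Lhx2-deleted retina and flow-sorted GFP-positive cells, and only the E14 H3K27ac peak list was analysed here.

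Iroquois (Irx) proteins are homeodomain factors of the TALE class, and their genes lie in separate genomic clusters that arose by duplication. They are known for dividing the neural plate, heart and limb into territories, and in the retina Irx5 and Irx6 are known from cone bipolar cells. Zic proteins carry C2H2 zinc fingers related to those of the Gli factors, and their genes are arranged as divergently transcribed pairs. They act in neural plate, neural crest and cerebellar development, and in the retina Zic2 is known from the ganglion cells whose axons do not cross the midline. Acetylation of histone H3 at lysine 27 (H3K27ac) marks active promoters and enhancers, and regions without it can be inactive or held in a repressed state.

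The peaks fell unevenly over the clusters. All 4 Zic genes had an H3K27ac peak at a transcription start site (TSS), here meaning within 1000 bp of any annotated start, and 2 of the 6 Irx genes did (Irx2 and Irx3). No peak lay within 50 kb of Irx1, Irx4 or Irx6. The Irx windows together held 3 peaks of 382 to 718 bp, whereas the Zic windows held 9 peaks of 338 to 6167 bp. The peak list names a single ChIP alignment, taken here as the pooled replicate libraries, so each value below is a single value with no replicate error, and differences between genes or clusters carry no test.

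Set against the genome, the number of members with a peak was near the background, and the longest TSS peaks of the Zic genes were long. Among all protein-coding genes, 49.8% had a TSS peak, against 6 of the 10 members. A peak anywhere in the window was found for 72.1% of protein-coding genes and for 7 of the 10 members, and both shares are near their background. All 10 members had at most 3 other protein-coding genes in the window, and 66.6% of genes with so few neighbours had a peak there. Irx1, Irx2, Irx3 and Irx4 had no other protein-coding gene in their windows. Of such lone genes 44.2% had a peak in the window and 39.5% had a TSS peak, and of these 4 Irx genes 2 had both. The shortest of the long TSS peaks of the Zic genes, that of Zic5, measured 3619 bp, and 170 genes, or 0.76% of all protein-coding genes and 1.53% of those with a TSS peak, had one of at least that length. This limit was taken from the Zic genes themselves, whose 4 starts rest on 3 such peaks because Zic1 and Zic4 share one.

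**Figure D1:**
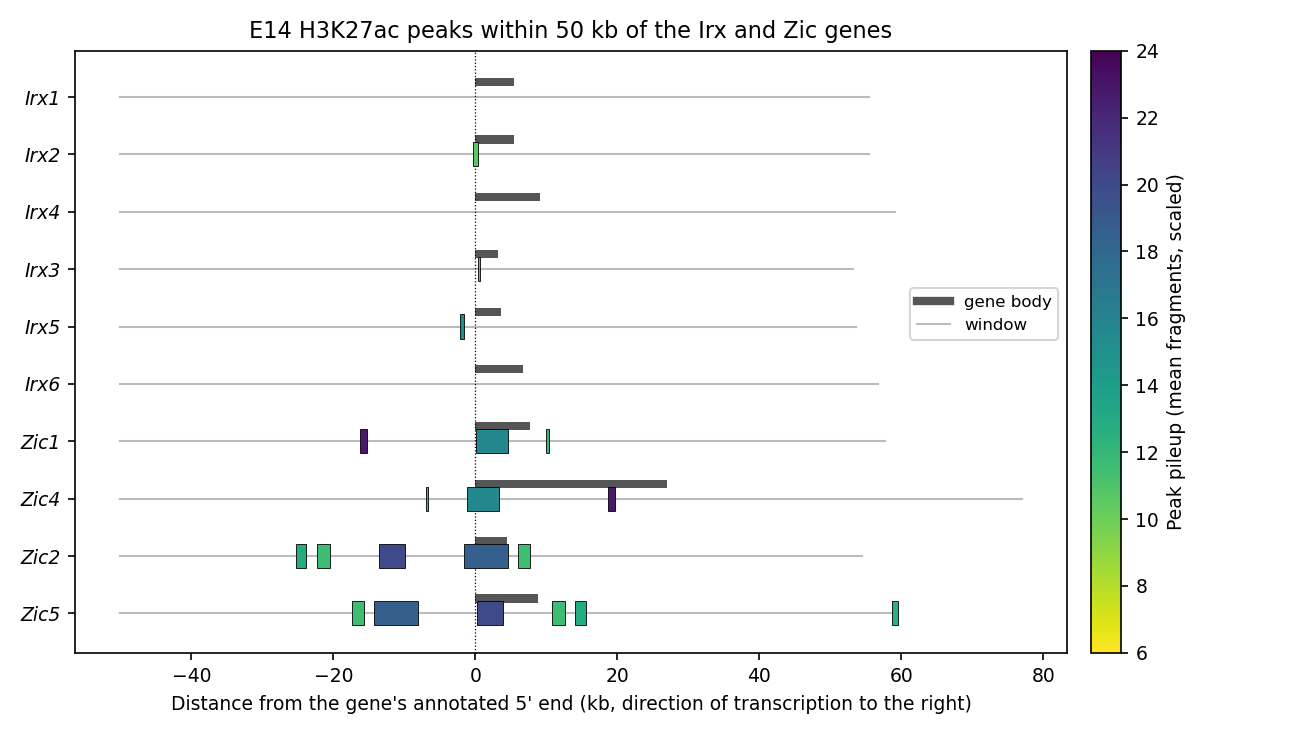
H3K27ac peaks in the window of each member. The x axis is the distance in kb from the gene's annotated 5′ end, with transcription running to the right. Dark bars are gene bodies, thin lines the windows, and boxes the peaks, coloured by pileup. Boxes are absent for Irx1, Irx4 and Irx6, and the widest boxes lie on Zic2, Zic1 and Zic5. Peaks shared by Zic1 and Zic4, or by Zic2 and Zic5, are drawn in both rows.

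The sequences just upstream of 4 of the genes are given to show the DNA at starts with and without a called peak. Each is the 250 bp before the annotated 5′ end, on the strand of the gene, from the mm9 (NCBIM37) assembly, and capitals mark CpG dinucleotides. Irx1 (chr13:72101172-72101421, minus strand) had no peak within 50 kb and 23 CpGs in this stretch. Irx2 (chr13:72765995-72766244, plus strand) had 21 CpGs, and the whole stretch lay inside its peak. Zic2 (chr14:122874354-122874603, plus strand) had 31 CpGs and also lay inside a peak. Zic5 (chr14:122864900-122865149, minus strand) had 11 CpGs and lay just outside its peak, which was within the gene.
Irx1: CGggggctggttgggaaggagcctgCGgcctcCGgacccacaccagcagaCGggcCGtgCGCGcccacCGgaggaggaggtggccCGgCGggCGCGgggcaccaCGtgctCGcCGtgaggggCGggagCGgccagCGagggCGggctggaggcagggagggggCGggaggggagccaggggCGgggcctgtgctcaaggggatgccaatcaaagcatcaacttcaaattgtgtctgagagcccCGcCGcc
Irx2: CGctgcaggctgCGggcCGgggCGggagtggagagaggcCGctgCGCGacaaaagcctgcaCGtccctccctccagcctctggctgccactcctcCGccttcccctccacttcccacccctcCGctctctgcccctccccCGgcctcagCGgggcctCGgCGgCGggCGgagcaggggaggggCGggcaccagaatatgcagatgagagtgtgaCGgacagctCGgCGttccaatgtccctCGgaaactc
Zic2: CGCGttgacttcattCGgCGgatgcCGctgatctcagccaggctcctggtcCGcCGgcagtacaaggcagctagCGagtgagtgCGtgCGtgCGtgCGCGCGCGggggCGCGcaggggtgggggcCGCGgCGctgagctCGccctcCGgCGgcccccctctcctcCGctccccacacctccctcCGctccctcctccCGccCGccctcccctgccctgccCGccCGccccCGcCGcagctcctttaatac
Zic5: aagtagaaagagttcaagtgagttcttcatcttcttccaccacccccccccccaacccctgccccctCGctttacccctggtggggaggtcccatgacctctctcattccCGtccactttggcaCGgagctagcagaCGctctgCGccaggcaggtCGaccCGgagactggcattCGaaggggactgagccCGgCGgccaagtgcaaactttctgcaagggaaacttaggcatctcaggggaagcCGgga

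A pair of peak centres from the Zic clusters is given as well, the first for its pileup and the other for its motif matches. The intronic Zic4 peak had the highest pileup of the 12, and its central 300 bp (chr9:91276279-91276578, plus strand) are shown with the 32 CpGs in capitals. The peak at the start of Gm5089 (chr14:122849946-122850245, plus strand, the central 300 bp) held a homeodomain core, TAATTA, and a Sox core, ACAATG, read on the other strand as CATTGT, and these are in capitals.
Zic4 intronic peak: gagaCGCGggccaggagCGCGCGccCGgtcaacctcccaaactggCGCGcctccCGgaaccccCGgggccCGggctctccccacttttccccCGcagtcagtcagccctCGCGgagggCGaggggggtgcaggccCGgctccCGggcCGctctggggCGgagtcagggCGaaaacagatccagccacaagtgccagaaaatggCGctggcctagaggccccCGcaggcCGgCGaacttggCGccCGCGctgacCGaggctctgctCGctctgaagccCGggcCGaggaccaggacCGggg
Gm5089 peak: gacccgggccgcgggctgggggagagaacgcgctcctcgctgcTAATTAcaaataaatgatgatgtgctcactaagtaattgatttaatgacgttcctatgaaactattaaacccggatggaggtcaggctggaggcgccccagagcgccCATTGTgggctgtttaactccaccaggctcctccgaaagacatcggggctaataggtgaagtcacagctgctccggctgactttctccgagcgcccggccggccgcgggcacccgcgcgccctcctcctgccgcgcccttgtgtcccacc

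In the cluster of Irx1, Irx2 and Irx4 a single peak was found, at Irx2. Pileup is the depth of ChIP fragments averaged over a peak after scaling to the control library, and fold enrichment compares it with the local control background. The Irx2 peak (chr13:72765844-72766561) was 718 bp long with a pileup of 10.52, a fold enrichment of 2.84 and a −log10 q-value of 1.25. It was thus among the faintest of the list, since 0.735% of the 13463 peaks had a lower fold enrichment. The peak covered the 5′ end of Irx2 and 317 bp of the gene, which is 5.87% of its length. It comprised 401 bp of intergenic sequence, 265 bp of untranslated sequence and 52 bp of coding sequence. Irx2 has 7 annotated starts, and 4 of them lay within 1000 bp of the peak.

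Irx1 and Irx4, which lie on either side of Irx2, had no peak in their windows. The peak nearest to the Irx1 TSS was the Irx2 peak itself, 664673 bp away, and 4.68% of all protein-coding genes were farther from a peak. Among lone genes this share was 11.7%. The peak nearest to the Irx4 TSS lay 67574 bp downstream at the start of Ndufs6, a subunit gene of mitochondrial complex I that is named here because its position was seen in the data. For Irx4 26.3% of protein-coding genes, and 53.2% of lone genes, were farther from a peak. Absence from the list means that no peak passed the authors' broad-peak threshold, not that the mark was absent. In dissociated whole tissue, a mark in few cells and a weak mark in many cells cannot be told apart.

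The cluster of Irx3, Irx5 and Irx6 held a pair of short peaks. At Irx3 the peak (chr8:94324848-94325229) was 382 bp long, with a pileup of 10.56 and a fold enrichment of 3.68. It lay inside the gene, 324 bp from the TSS, over 276 bp of coding and 90 bp of untranslated sequence, and did not reach the start. The same peak lay within 1000 bp of the start of D230002A01Rik, a long non-coding RNA that overlaps Irx3, and the list cannot assign it to either gene. Only 5.47% of all peaks were shorter.

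The peak nearest to Irx5 lay at the start of a neighbouring gene. It was 551 bp long (chr8:94879511-94880061), with a pileup of 15.19, and covered the start of 4933436C20Rik. The annotation used here calls that gene protein coding, and RefSeq lists it as the long non-coding RNA Crnde. The peak ended 1634 bp upstream of the Irx5 TSS and did not touch Irx5, so it counted as flanking. Its pileup was close to the median over all peaks, 15.06, and was the highest of the 3 Irx peaks. Irx6 had no peak in its window, and the nearest lay 152532 bp downstream at the start of Mmp2, a matrix metalloproteinase gene also named after its position was seen. For Irx6 16.8% of protein-coding genes were farther from a peak.

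Further H3K27ac peaks lay in the long gaps between the Irx genes. The genes of the Irx1/2/4 cluster span 1311.4 kb and those of the Irx3/5/6 cluster span 882.4 kb. One peak of 1118 bp, with a pileup of 8.49, lay 183.2 kb from Irx2. In the Irx3/5/6 cluster, a peak of 1146 bp with a pileup of 7.36 lay 195.0 kb from Irx3, and one of 805 bp with a pileup of 9.23 lay 102.5 kb from Irx5. These 3 peaks had lower pileups than any of the 12 in the windows, but were longer than the Irx peaks there. Their fold enrichments were 3.62, 3.58 and 4.42, beside 2.84 to 3.68 for the Irx window peaks. The 3 peaks overlapped no annotated start or gene. Which gene, if any, they act on was not tested.

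Zic1 and Zic4, which are transcribed in opposite directions and are both needed for cerebellar growth, shared all 3 peaks of their windows. The longest (chr9:91255999-91260572) was 4574 bp, with a pileup of 15.63 and a fold enrichment of 5.06. It covered 59.0% of the Zic1 gene and lay over 1341 bp of coding, 1219 bp of untranslated and 2014 bp of intronic sequence. One of the 3 annotated Zic1 starts was inside it, and the other 2 lay 34 and 76 bp beyond its edge. The most upstream Zic4 start, at chr9:91257251, lies within the Zic1 gene and was also inside this peak. That peak was the 85th longest in the list, and its pileup ranked above 54.2% of peaks.

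The strongest peak by pileup was in an intron of Zic4. It was 1066 bp long (chr9:91275896-91276961), with a pileup of 22.82, a fold enrichment of 8.16 and a −log10 q-value of 14.47. Of all peaks, 94.3% had a lower pileup and 98.7% a lower fold enrichment. It consisted wholly of intronic sequence and ended 287 bp before a downstream Zic4 start. Of the 12 annotated Zic4 starts, 2 had a peak within 1000 bp, the one shared with Zic1 and this one, whereas the 8 starts from chr9:91263205 to chr9:91266188 had none, nor did the 2 at chr9:91273035 and chr9:91273480, which lay 2861 and 2416 bp from the intronic peak. The remaining peak of this cluster was 338 bp long (chr9:91250308-91250645), had a pileup of 11.77 and was intergenic, 6606 bp from the nearest Zic4 start.

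Zic2 and Zic5 form the other divergent pair, 9705 bp apart at their starts, and their windows held 6 peaks, of which 5 were shared. Zic2, known for roles in forebrain midline and ganglion cell development, lay wholly under a peak. That peak (chr14:122873005-122879171) was 6167 bp long, the 21st longest of the list, with a pileup of 18.65 and a fold enrichment of 5.17. It also took in 1696 bp of intergenic sequence on the sides of the gene, and it lay within 1000 bp of the start of 2610035F20Rik, a long non-coding RNA. At Zic5, a gene of neural crest and neural tube development, the peak (chr14:122861017-122864635) was 3619 bp long, with a pileup of 19.99 and a fold enrichment of 4.85. It covered 40.7% of the gene and began 264 bp inside the TSS.

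The other 4 peaks of this cluster were flanking and fainter. Downstream of Zic2, 3281 bp from its nearest start, was an intergenic peak of 1727 bp with a pileup of 11.55. Beyond the 3′ end of Zic5, a peak of 1774 bp with a pileup of 11.67 lay 5171 bp from its nearest start, and a peak of 1429 bp with a pileup of 12.99 covered the start of Gm5089. The annotation used here calls Gm5089 protein coding, and RefSeq lists it as a long non-coding RNA. The last, of 895 bp with a pileup of 12.53, was intergenic and 52951 bp from the nearest Zic5 start. The pileups of the flanking peaks, 11.55 to 12.99, were all below those of the Zic2 and Zic5 TSS peaks.

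**Figure D2:**
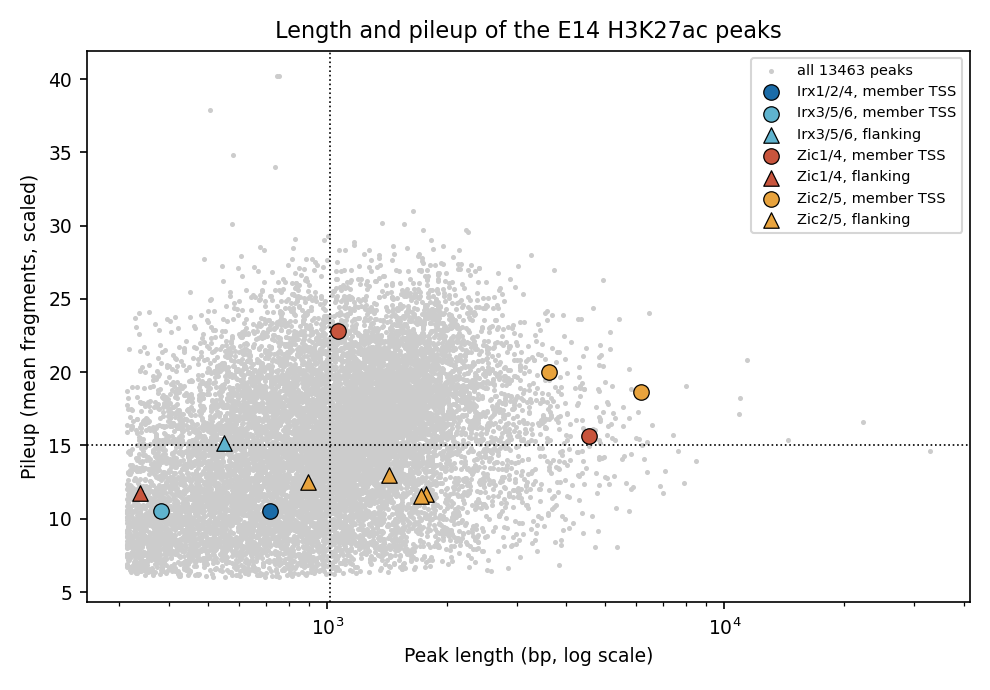
Length in bp (x axis, log scale) against pileup (y axis, scaled fragments averaged over the peak) for all 13463 peaks in grey and the 12 member peaks in colour. Circles are peaks at a member's TSS, triangles are flanking peaks, and dotted lines are the medians over all peaks, 1015 bp and 15.06. The circles of the Zic clusters lie to the right of the median length, and the circles of the Irx clusters lie to its left and below the median pileup.

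Across the clusters the ordering was Irx1/2/4, Irx3/5/6, Zic1/4 and Zic2/5, by covered sequence and, with these windows, by number of peaks. Their windows held 1, 2, 3 and 6 peaks in 320.0, 313.5, 131.3 and 123.1 kb, respectively. The order by number was kept with 25 kb on either side, by peak midpoint and with nearby peaks joined, and it was lost under 3 other settings. Keeping only peaks with 4-fold enrichment or more and a q-value no higher than 0.001 gave 0, 0, 3 and 3 peaks. With 100 kb on either side the counts were 3, 3, 3 and 8, and over the whole span of each cluster, an alternative chosen after seeing the data, they were 2, 4, 3 and 6. Peaks covered 0.224% of the Irx1/2/4 windows and 0.298% of the Irx3/5/6 windows. They covered 4.55% of the Zic1/4 windows and 12.2% of the Zic2/5 windows. Per gene, the covered share was 0.681% for Irx2, 0.37% for Irx3 and 0.532% for Irx5. It was 5.55% for Zic1, 4.71% for Zic4, 14.1% for Zic2 and 13.8% for Zic5, beside a median of 1.08% over all protein-coding genes. The shares of Zic2 and Zic5 each exceeded those of 99.8% of genes, and they rest on 5 shared peaks and are not independent.

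**Figure D3:**
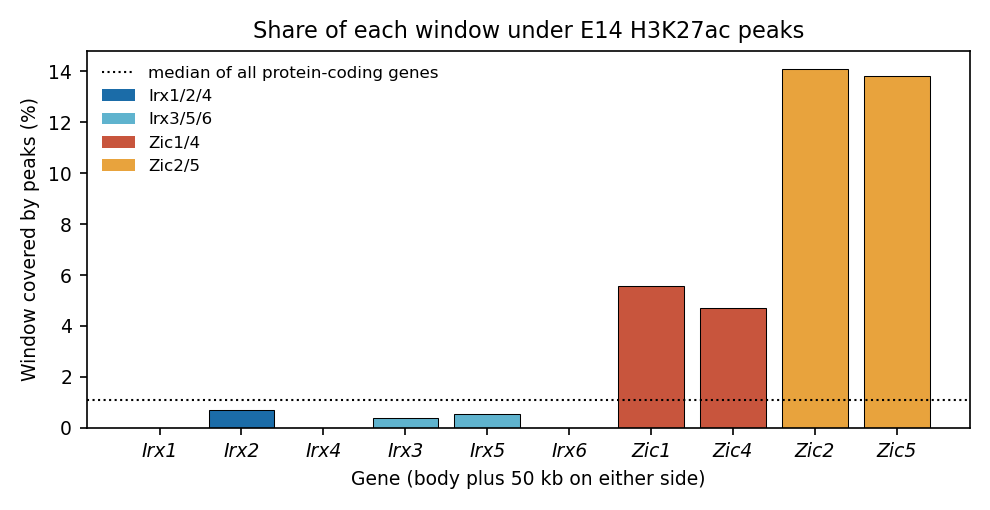
Percent of each window (y axis, gene body plus 50 kb on either side) under H3K27ac peaks, one bar per gene (x axis), coloured by cluster, with a dotted line at the median of all protein-coding genes, 1.08%. The bars of Zic2 and Zic5 reach 14.1% and 13.8%, and Irx1, Irx4 and Irx6 are at 0.

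Over all peaks of the windows, the families stood further apart in peak length than in pileup. Of the 9 Zic peaks 7 were longer than the median peak, and of the 3 Irx peaks none was. The median length was 1727 bp for the Zic peaks and 551 bp for the Irx peaks. The median pileup was 12.99 for the Zic peaks and 10.56 for the Irx peaks, and both were below the median of the list. Against all peaks these medians stood at the 84.5 and 17.5 percentiles for length and at the 35.1 and 19.8 percentiles for pileup, respectively. Over all 12 peaks the median length was 1247.5 bp, above 64.6% of all peaks, and the median pileup was 12.76, above 33.6%. Among the 11147 genes with a TSS peak, the longest such peak was longer than in 98.5% of genes for Zic5, 99.3% for Zic1 and Zic4 and 99.8% for Zic2. The same value was 22.8% for Irx2 and 2.89% for Irx3. At the start sites the pileups also stood apart, with a median of 19.32 over the 4 Zic TSS peaks and 10.54 over the 2 Irx TSS peaks, whereas the flanking peaks ran the other way, with a median of 11.77 over the 5 Zic peaks and 15.19 for the 1 Irx peak. By highest TSS pileup, Zic1 stood above 41.2%, Zic2 above 68.9%, Zic5 above 79.0% and Zic4 above 92.8% of the genes with a TSS peak, whereas Irx2 stood above 7.22% and Irx3 above 7.33%.

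The peaks of the Irx windows did not pass a stricter threshold. Its fold and q-value limits are among those the paper's methods give for high-confidence ChIP-Seq peaks. The further p-value and replicate conditions given there were not applied here. When peaks needed 4-fold enrichment or more and a q-value no higher than 0.001, 64.1% of all peaks were kept, against 6 of the 12 member peaks, near the background. All 6 were Zic peaks, 3 from each Zic cluster. Under this threshold Zic1, Zic4, Zic2 and Zic5 kept a TSS peak and no Irx gene did. Of the peaks in the gaps between Irx genes, the one 102.5 kb from Irx5 passed it, with a fold enrichment of 4.42.

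The sequence around the start sites did not follow the same division. Most of the members have CpG-rich starts, the kind usually found at developmental regulators. Over the 500 bp on either side of the 5′ end, GC content was 64.5% to 73.8% in the 6 Irx genes, and the ratio of observed to expected CpG was 0.62 to 0.9. For Irx1, Irx4, Irx5 and Irx6, which had no TSS peak, the CpG ratios were 0.9, 0.82, 0.85 and 0.62. The Zic genes included the lowest values, with 53.4% GC for Zic4 and a CpG ratio of 0.56 for Zic5, and also a high one, 73.2% GC and 0.92 for Zic2. Over all protein-coding genes the median CpG ratio was 0.75 with a TSS peak and 0.24 without. Among the 9771 protein-coding genes whose start was at or above the lowest GC content and CpG ratio of the members, 85.9% had a TSS peak, against 6 of the 10 members. These limits were set from the members' own values.

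**Figure D4:**
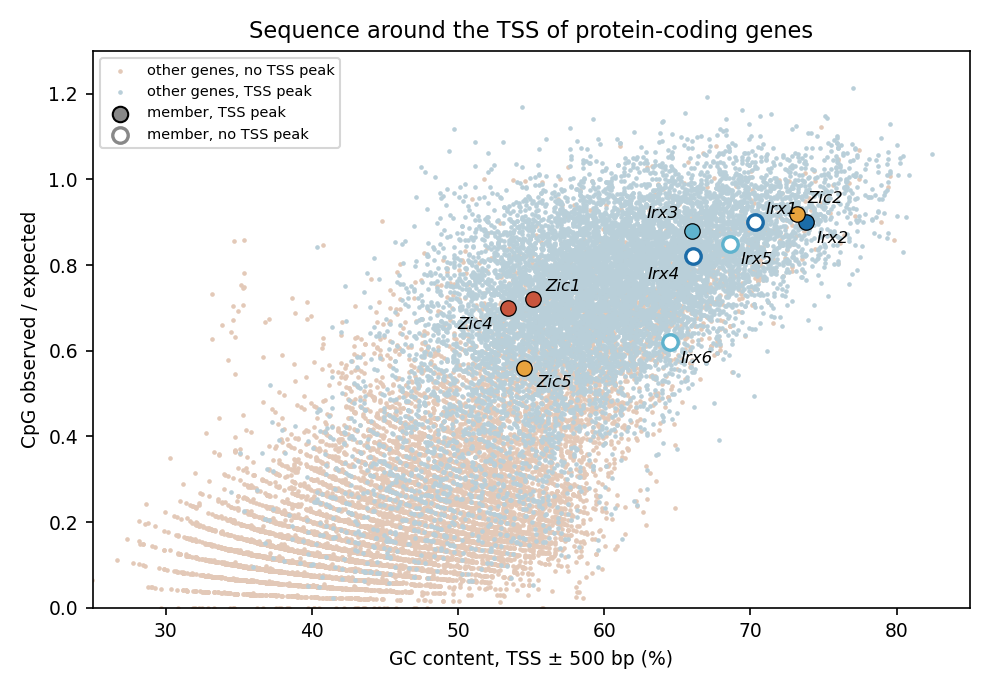
GC content in percent (x axis) against observed over expected CpG (y axis) in the 500 bp on either side of the 5′ end of each protein-coding gene. Small points are all genes, coloured by presence of a TSS peak, and large circles are the members, filled with a TSS peak and open without. The open circles of Irx1, Irx4, Irx5 and Irx6, with CpG ratios of 0.62 to 0.9, lie above the median of genes without a TSS peak, 0.24.

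The peaks themselves differed in base composition as well. Over whole peaks, which differ in length, GC content was 70.1% to 74.1% for Irx and 48.4% to 62.0% for Zic. The median over all peaks was 60.2%. The lowest whole-peak value, 48.4%, was that of the flanking peak 5171 bp from Zic5. In the central 300 bp the ranges overlapped, with 71.0% to 78.0% for the Irx peaks and 40.3% to 73.7% for the Zic peaks. Short sequence cores were searched on both strands: TAATTA of LIM-homeodomain factors such as LHX2, ACANNTGT of Irx proteins, CAGCAGG of Zic proteins and ACAATG of Sox proteins. None of these cores was found in the 250 bp upstream of any member. They occur in 4.59%, 5.72%, 8.03% and 9.09% of all such promoters, so with this few members a count of 0 is near the background. Among the central 300 bp of the 12 peaks, 1 held TAATTA, 0 held ACANNTGT, 1 held CAGCAGG and 3 held ACAATG, and the shares over all peaks were 2.09%, 3.4%, 11.7% and 7.44%. Such matches describe letters in a window only. The strongest peak, in the Zic4 intron, held none of the 4 cores in its centre, but 1 CAGCAGG and 1 ACAATG elsewhere. Other member peaks also held cores outside their centres, and shares over whole peaks were not computed for the list.

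Marker genes were read beside the 49.8% of all protein-coding genes with a TSS peak. All 11 eye-field and RPC factors examined, among them Pax6, Six3 and Lhx2, had a TSS peak. Their longest TSS peaks measured 2004 to 32865 bp, with a median of 5900 bp, so long TSS peaks were not particular to the Zic genes. None of 8 genes of other tissues, such as Alb and Myod1, had one. Of 5 ganglion cell factors 4 had a TSS peak, Pou4f1 being the exception. Whole retina holds both RPCs and ganglion cells, and their shares in the Zic peaks were not tested.

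Related genes outside the clusters were examined in the same way. Mkx, a homeodomain gene related to the Irx genes, had no peak in its window. The 3 Gli genes, whose zinc fingers resemble those of Zic proteins, all had TSS peaks, with longest peaks of 1791 to 2368 bp. None of 10 neural tube patterning factors, such as Olig2, Nkx2-2 and Pax3, had a TSS peak, beside 49.8% of all protein-coding genes. Irx1, Irx4, Irx5 and Irx6 had none either, and a link between these genes and that list was not tested. The lists were chosen with earlier results of these data known, so their counts are descriptive only.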

How the data were processed

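H3K27ac was measured by ChIP-Seq in E14 CD1 retina. Per the labels, 2 replicate libraries were set against 1 isotype control library. The authors aligned with Bowtie2 (mm9), retained reads that map to a single place and called broad peaks with MACS2 2.1.0.20140616 at a broad cutoff of 0.1, keeping 1 tag per position. The header names 1 ChIP alignment, taken here as the pooled replicates. Per the file headers 113543038 ChIP and 9210563 control tags remained, so the larger ChIP set was scaled down. How the control depth affects the fold of faint peaks was not tested. The deposited values are the pileup (coverage signal), the fold enrichment (a ratio to local background) and −log10 p-values and q-values. Peaks were joined here to GENCODE vM1 genes (NCBIM37, the same assembly as mm9) by an overlap of at least 1 bp with the gene body extended by 50 kb, and percentiles give the share of peaks or genes with a lower value. Python 3.11.15, numpy 2.4.6 and pandas 2.3.3 were used, and the overlap code was tested on simulated data. Names of long non-coding RNAs were looked up in RefSeq (assembly GRCm38.p6, names only), and no match was found for D230002A01Rik. All 10 members and every peak of their windows were named. Other genes were named where they start at such a peak or at the peak nearest to a member, and marker genes were counted by list. Some items of the lists are not reported here. The members and lists were chosen with earlier results of these data known. Other windows, TSS definitions and thresholds were tried. Values of the other samples were not analysed here.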

Additional observations from a re-analysis of the deposited data

How the results depend on the processing

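Over 10 alternative settings, each applied to the results it bears on, 46 values were recomputed. Counts within 1.5 times and unchanged medians made up 34 of them, and 12 moved. The stricter threshold (4-fold enrichment or more, q-value no higher than 0.001) left 6 of the 12 peaks: 0 in the Irx1/2/4 windows, 0 in the Irx3/5/6 windows and 3 in the Zic2/5 windows. The median length then rose to 2673 bp and the median pileup to 17.14, since the fainter peaks are removed. Extending the windows to 100 kb gave 3 peaks for Irx1/2/4. Counting the whole span of a cluster, an alternative chosen after seeing the data, gave 2 for Irx1/2/4 and 4 for Irx3/5/6. The 4 peaks over 1000 bp from any TSS had a median pileup of 11.72. Members with a TSS peak numbered 4 when a peak had to cover a start (Irx2, Zic1, Zic4 and Zic2) and 7 when peaks up to 5000 bp upstream counted, which added Irx5. No paired analysis was possible because the deposited E14 values are 1 list with no values per replicate. With no per-library values, agreement between the replicates and the depth behind single peaks were not analysed here.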
